A study of Mus musculus with 60 samples.

Results

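Transcript levels of 10 genes that direct red cell and platelet formation were followed through a mouse whole blood series. They were 9 transcription factors and cofactors (Gata1, Klf1, Tal1, Nfe2, Gfi1b, Zfpm1, Lmo2, Fli1 and Mafg) and Epor, the receptor for erythropoietin. The genes were chosen by name, with earlier results of these data known, so how many of them passed a test is not independent evidence. They were matched by symbol and Ensembl identifier to the count tables, in which all 10 were found among 49315 genes. RNA sequencing was done on blood of 60 male CD2F1 mice, bought at 5 to 6 weeks of age and older when bled, with 6 mice in each of 10 groups. Each mouse had received vehicle or BIO 300, an oral formulation of the isoflavone genistein, as 12 doses over 6 days. Day 0 blood was drawn 24 h after the last dose and Day 1 blood 48 h after it, from different mice. The Day 0 groups were vehicle and BIO 300 at 50, 100 and 200 mg/kg, none of them irradiated. The same 4 treatments made up the Day 1 groups without irradiation. Vehicle and 200 mg/kg BIO 300 were also given before total-body irradiation (TBI) of 9.2 Gy, with blood drawn on Day 1, 24 h after the exposure. The 12 irradiated mice were exposed 6 to a box, and which mice shared a box was not given in the sources used here. The design asks how dose, day and irradiation bear on these transcripts.

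GATA1 is the zinc finger factor on which both erythroblasts and megakaryocytes depend, and FOG1, the product of Zfpm1, is its cofactor. TAL1 binds DNA beside GATA1 through the bridging protein LMO2, while GFI1B is a repressor used in both lineages. KLF1 drives adult globin and other red cell genes, and FLI1, an ETS factor, drives megakaryocyte genes. NF-E2 is a dimer of the Nfe2 product with a small MAF protein such as MAFG and is needed for platelet release. Red cells and platelets have no nucleus, so their transcripts in blood are those left from the precursor, and reticulocytes and young platelets carry the most.

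The libraries held 15099415 to 45589415 counts each (median 24877993.5). Scaling weighed on many of the group comparisons, because the factors of the trimmed mean of M values (TMM) method ran from 0.415 to 0.646 in the 200 mg/kg Day 1 group and from 1.39 to 2.02 in the 50 mg/kg Day 0 group. Levels are given as CPM, counts scaled to library size on TMM scaled libraries, and directions were also read on total counts, that is with no such factor. All 29 red cell genes, all 25 megakaryocyte and platelet genes and all 8 markers each of neutrophils, monocytes, B cells and T cells had counts in every mouse. Alb, a liver transcript, reached 1000 CPM or more in 7 libraries of 6 groups, the highest being mouse 51 of the irradiated vehicle group at 21977 CPM. All 7 were of mice with odd animal numbers, and what odd and even numbers stand for was not given. Fewer cells of a type and less RNA per cell cannot be told apart in such bulk samples.

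The 300 bases around the start sites (250 before and 50 after) show what the members share in sequence, and they were available for 7 of the 10 members in 8 windows (RefSeq, GRCm38.p6). Short letters bound by the member proteins were searched on both strands: AGATAA for GATA factors, CAGATG and CAGGTG for TAL1-type dimers, CCACACCC for KLF1, CCGGAAG for ETS factors and TGAGTCA for NF-E2, a motif that AP-1 factors also bind. AGATAA occurred in Tal1 and Epor, 2 of the 7, against 11.2% of 32817 promoters of the same length. Only these exact letters were searched. Other forms of the GATA motif, such as TGATAA, which the Klf1 and Gfi1b windows hold on 1 strand, were not counted or marked. CAGATG occurred in Tal1, Klf1 and Epor, 3 of the 7, against 17.2% of all promoters. None of the 7 held CAGGTG (20.2% of all), CCACACCC (3.56%), CCGGAAG (8.86%) or TGAGTCA (5.20%). Members are counted here per gene and all promoters per window. The second Tal1 window (chr4:115057561-115057860, plus strand) held none of the letters searched. The 3 windows with a match are printed 5′ to 3′ on the strand of the gene, with the matches in capitals (TTATCT and CATCTG are AGATAA and CAGATG read on the other strand). They are Tal1 at chr4:115056176-115056475 on the plus strand, Klf1 at chr8:84901732-84902031 on the plus strand and Epor at chr9:21963527-21963826 on the minus strand.
Tal1: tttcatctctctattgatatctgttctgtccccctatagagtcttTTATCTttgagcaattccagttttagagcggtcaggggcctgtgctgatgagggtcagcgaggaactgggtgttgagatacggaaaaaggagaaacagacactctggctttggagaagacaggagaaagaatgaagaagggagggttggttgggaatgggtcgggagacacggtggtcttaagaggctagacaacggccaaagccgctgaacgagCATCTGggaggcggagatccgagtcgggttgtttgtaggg
Klf1: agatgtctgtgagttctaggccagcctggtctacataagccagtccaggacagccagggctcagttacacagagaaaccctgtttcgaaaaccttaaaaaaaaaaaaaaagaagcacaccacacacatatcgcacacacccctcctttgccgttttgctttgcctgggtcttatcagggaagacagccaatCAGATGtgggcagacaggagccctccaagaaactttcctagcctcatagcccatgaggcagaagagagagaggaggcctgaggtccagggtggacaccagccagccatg
Epor: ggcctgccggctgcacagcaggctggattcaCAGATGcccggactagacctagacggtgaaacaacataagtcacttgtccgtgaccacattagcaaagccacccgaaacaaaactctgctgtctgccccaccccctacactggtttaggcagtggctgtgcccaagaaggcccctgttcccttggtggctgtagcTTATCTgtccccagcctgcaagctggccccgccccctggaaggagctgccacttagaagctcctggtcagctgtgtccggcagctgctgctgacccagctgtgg
In Tal1 the GATA match began 205 bases before the start site and the other match 10 bases after it. In Klf1 the match began 59 bases before the start site. In Epor the GATA match began 54 bases and the CAGATG match 219 bases before it. A match of letters is a description and not a site shown to be bound.

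Across the 10 groups all 10 genes differed in an F test of edgeR's quasi-likelihood fit, where 76% of 29271 genes passed at the same threshold (adjusted p under 0.05 by the Benjamini-Hochberg method). Their F values lay between the 72.4 and the 98.1 percentile of all genes, Zfpm1 lowest and Gfi1b highest. On the TMM scale the lowest group mean of every member was that of 50 mg/kg on Day 0. The highest was irradiated 200 mg/kg for Gata1, Tal1, Nfe2, Gfi1b, Fli1, Epor and Mafg, and 200 mg/kg on Day 1 for Klf1, Zfpm1 and Lmo2.

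Gata1 (ENSMUSG00000031162, chrX:7959260-7978071, minus strand, GRCm38) had a mean of 23.5 ± 5.7 CPM (SD, n = 6) in vehicle mice on Day 1, with a lowest, median and highest mouse of 17.8, 22.1 and 33.4. The corresponding values were 110, 121 and 230 CPM at 100 mg/kg, 106, 144 and 174 CPM at 200 mg/kg, 39.8, 150 and 293 CPM in irradiated vehicle mice and 70.5, 249 and 361 CPM in irradiated 200 mg/kg mice. The Day 0 groups ran from 10.6 to 21.0 CPM at 50 mg/kg to 27.2 to 70.0 CPM at 200 mg/kg, with vehicle at 24.3 to 46.3 CPM. The 100 and 200 mg/kg Day 1 groups and both irradiated groups had the highest means, and the 50 mg/kg Day 1 mice lay at 24.6 to 50.0 CPM. Of the 9 steps between neighbouring group means, 7 were smaller than the larger SD of the pair on the log2 scale. The step from 200 mg/kg on Day 1 (140 CPM) down to 200 mg/kg on Day 0 (40.8 CPM) was the one at which the ranges of the mice did not meet.

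**Figure D1:**
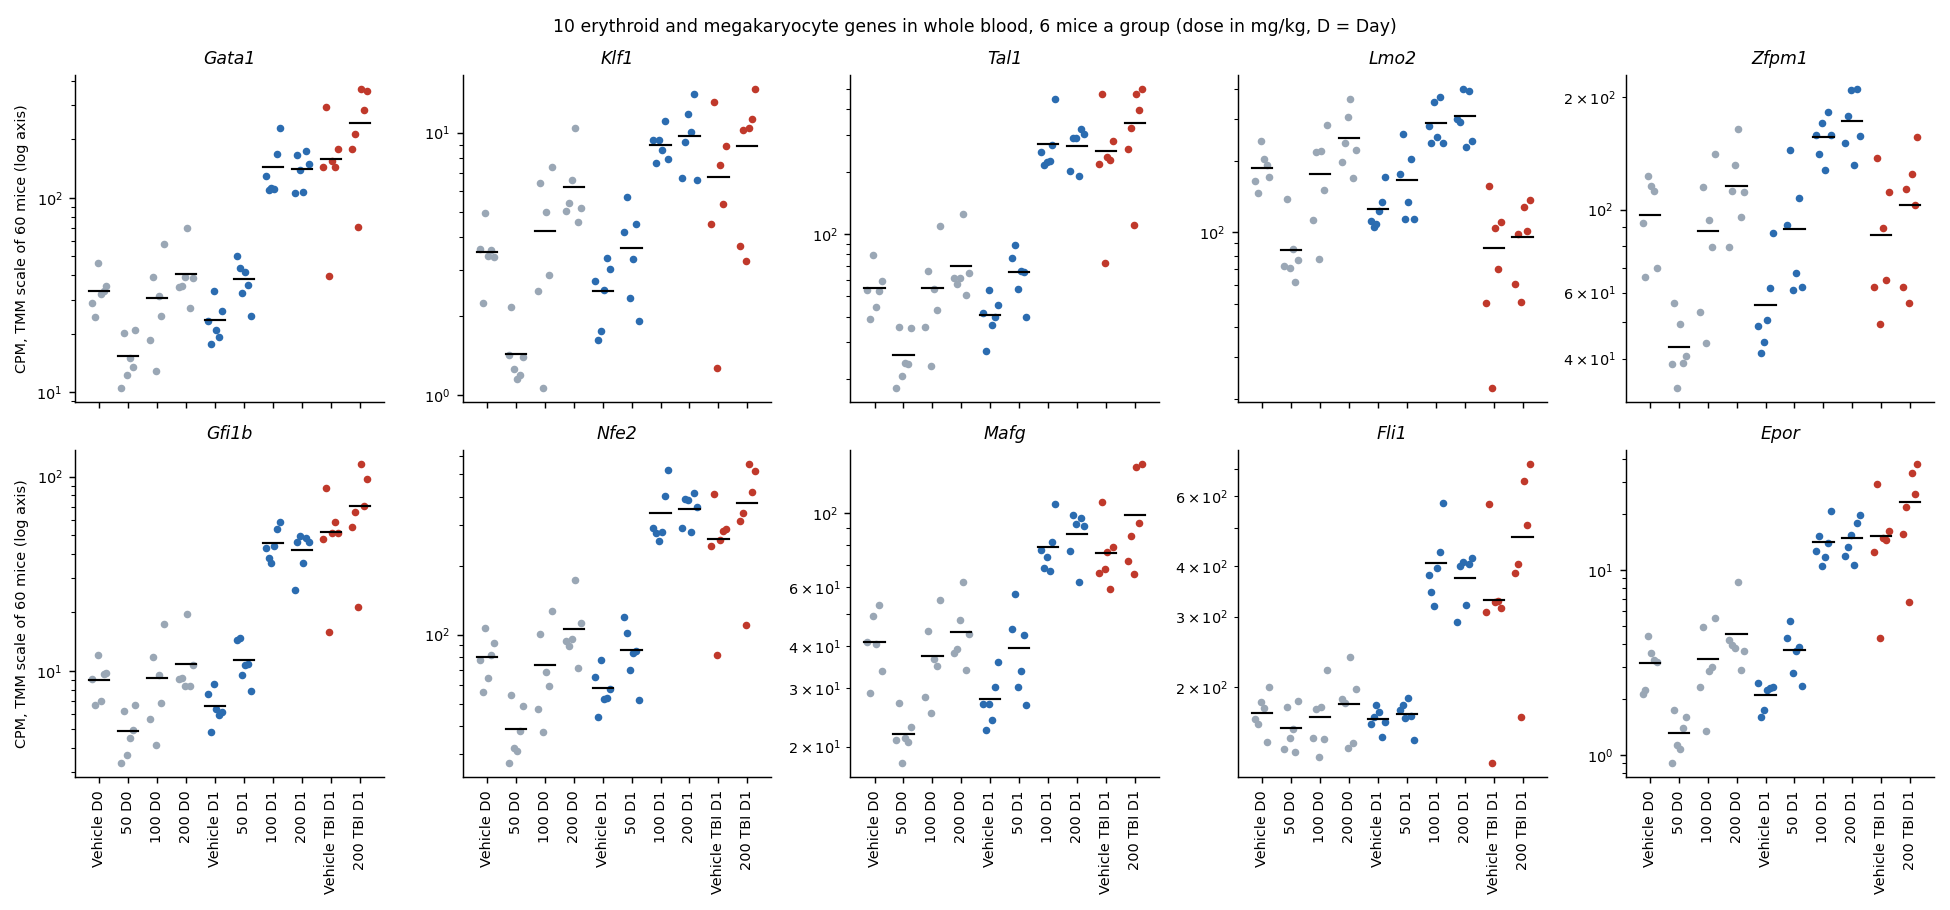
Level of each of the 10 genes in every mouse (points, CPM on TMM scaled libraries, log axis) by group on the x axis, with group means as black lines, Day 0 in grey, Day 1 in blue and irradiated mice in red. Gata1, Tal1, Nfe2, Gfi1b and Epor are high at both higher doses on Day 1 and in both irradiated groups, while Lmo2 is high in the first pair and not in the irradiated groups, and on total counts its log2 differences from vehicle in that pair were -0.14 and -0.17.

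Zfpm1 (ENSMUSG00000049577, chr8:122282141-122337251, plus strand), the cofactor of GATA1, had another order. Its mice ran from 41.5 to 86.4 CPM in vehicle Day 1 blood, from 127 to 182 CPM at 100 mg/kg and from 131 to 210 CPM at 200 mg/kg. Irradiated vehicle mice lay between 49.4 and 137 CPM and irradiated 200 mg/kg mice between 56.2 and 157 CPM, within or near the Day 0 vehicle range of 66.3 to 123 CPM. Over all groups the highest mean was 4.02 times the lowest for Zfpm1 and 15.8 times for Gata1, and on total counts the ratios were 1.41 and 7.42.

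Tal1 and Lmo2, whose proteins sit in one complex, also parted. Tal1 (ENSMUSG00000028717, chr4:115056426-115071755, plus strand) had a lowest, median and highest mouse of 27.3, 40.9 and 53.8 CPM in vehicle Day 1 blood and of 72.6, 232 and 472 CPM in irradiated vehicle blood. At 100 mg/kg on Day 1 these values were 215, 237 and 448 CPM, and at 200 mg/kg they were 190, 290 and 320 CPM. Lmo2 (ENSMUSG00000032698, chr2:103957986-103981878, plus strand) ran through 105, 117 and 170 CPM in vehicle Day 1 mice and 238, 265 and 370 CPM at 100 mg/kg. In irradiated vehicle mice it ran through 22.4, 87.1 and 156 CPM, and in irradiated 200 mg/kg mice through 50.9, 100.2 and 137 CPM, so its irradiated mice overlapped the vehicle range or lay below it. All 9 steps between neighbouring group means of Lmo2 were within the spread of the mice.

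Gfi1b (ENSMUSG00000026815, chr2:28609450-28621982, minus strand), the repressor shared by both lineages, was at 4.84, 6.25 and 8.56 CPM in the lowest, median and highest vehicle Day 1 mouse. It was at 35.8, 43.4 and 58.2 CPM at 100 mg/kg, at 26.1, 46.1 and 49.7 CPM at 200 mg/kg and at 15.9, 51.4 and 87.1 CPM in irradiated vehicle mice. None of the high groups met the vehicle Day 1 range. Nfe2 (ENSMUSG00000058794, chr15:103248212-103258403, minus strand) rose from a mean of 58.2 ± 11.7 CPM in vehicle Day 1 mice to 339 ± 103 CPM with 100 mg/kg and 354 ± 56.0 CPM with 200 mg/kg (SD, n = 6 each). Its partner Mafg (ENSMUSG00000051510, chr11:120625117-120633600, minus strand) had 27.7 ± 4.8, 79.2 ± 14.3 and 86.4 ± 14.1 CPM in the same groups. The 3′ end of Mafg overlaps Sirt7 on the same strand, so some of its counts are uncertain.

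Klf1 and Epor, the members most tied to red cells, were the lowest. Klf1 (ENSMUSG00000054191, chr8:84901928-84905291, plus strand) had 1.62, 2.62 and 3.34 CPM in the lowest, median and highest vehicle Day 1 mouse, 7.66, 8.96 and 11.1 CPM at 100 mg/kg and 6.57, 9.65 and 14.0 CPM at 200 mg/kg. In irradiated vehicle mice it spread over 1.27, 6.44 and 13.1 CPM. Epor (ENSMUSG00000006235, chr9:21958897-21963506, minus strand) had 1.60, 2.27 and 2.46 CPM in vehicle Day 1 mice, 10.6, 13.3 and 20.9 CPM at 100 mg/kg and 4.31, 14.7 and 29.3 CPM in irradiated vehicle mice. Neither gene fell below 32 counts in a mouse. Per kilobase of exon, in CPM on the TMM scale, the highest group mean was 142 for Lmo2, 136 for Fli1 and 126 for Nfe2, against 11.8 for Epor and 6.35 for Klf1.

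Fli1 (ENSMUSG00000016087, chr9:32422204-32542861, minus strand), the ETS factor among the members, varied least on the TMM scale. Its Day 0 mice lay between 134.5 and 238 CPM in all 4 groups, and the vehicle and 50 mg/kg Day 1 mice between 148 and 189 CPM. It was at 319 to 575 CPM at 100 mg/kg and 291 to 419 CPM at 200 mg/kg on Day 1. The highest group mean was 2.99 times the lowest, and 2.30 times on total counts, where Zfpm1 varied least. Short unprocessed and antisense transcripts are annotated inside Fli1 and one gene overlaps Lmo2 on the other strand, so part of their counts is uncertain.

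All 10 genes were higher with BIO 300 at either higher dose, 100 and 200 mg/kg, than with vehicle on Day 1, and none of their ranges met on the TMM scale. The 5 with the largest differences at 100 mg/kg were Gfi1b, Epor, Tal1, Gata1 and Nfe2. At 100 mg/kg Gfi1b was 7.20-fold higher, with a log2 fold change of 2.85 ± 0.16 (SE, edgeR quasi-likelihood fit, adjusted p = 1.13e-08). Epor differed by 2.81 ± 0.18 and Tal1 by 2.79 ± 0.20. Gata1 differed by 2.66 ± 0.21 and Nfe2 by 2.60 ± 0.19. Klf1 followed with 1.91 ± 0.19. Mafg (1.57 ± 0.13), Zfpm1 (1.55 ± 0.17), Fli1 (1.35 ± 0.13) and Lmo2 (1.26 ± 0.15) had the smaller differences. In this comparison 25% of 23699 genes were called higher and 46.2% did not overlap between the groups. The median over the members was 2.25 and over all genes -0.38.

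At 200 mg/kg the 10 differences ran from 1.24 ± 0.12 for Fli1 to 2.88 ± 0.18 for Epor (adjusted p from 1.76e-08 to 5.39e-06), with 23.6% of 23513 genes called higher and 45.8% not overlapping. Klf1 differed by 2.02 ± 0.24 and Zfpm1 by 1.70 ± 0.18. The 100 and 200 mg/kg comparisons share their vehicle mice. Values at both doses lay close together, with Gata1 at 2.66 and 2.65, Tal1 at 2.79 and 2.78 and Epor at 2.81 and 2.88.

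The scaling moved the median of all genes by -1.38 (100 mg/kg) and -1.48 (200 mg/kg) when total counts replaced TMM, and the share of calls that were higher fell from 38.1% to 10.1% and from 37.2% to 8.53%. On total counts Gata1, Klf1, Tal1, Nfe2, Gfi1b and Epor were still called higher at both doses, 6 of 10 where 7.72% and 6.63% of genes were. Gata1 then differed by 1.25 ± 0.19 at 100 mg/kg, as against 1.10 ± 0.16 at 200 mg/kg, and Gfi1b by 1.44 ± 0.17 and 1.18 ± 0.17. Klf1 kept 0.53 ± 0.19 (adjusted p = 0.0232) and 0.48 ± 0.21 (adjusted p = 0.0490, edgeR). Mafg and Zfpm1 stood between 0.17 and 0.19 and were not called. Lmo2 turned to -0.14 and -0.17, not called, and Fli1 to -0.06, not called, and -0.31 ± 0.12, called lower. Every member remained above the median of all genes, which was -1.76 and -1.96 on that scale.

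**Figure D2:**
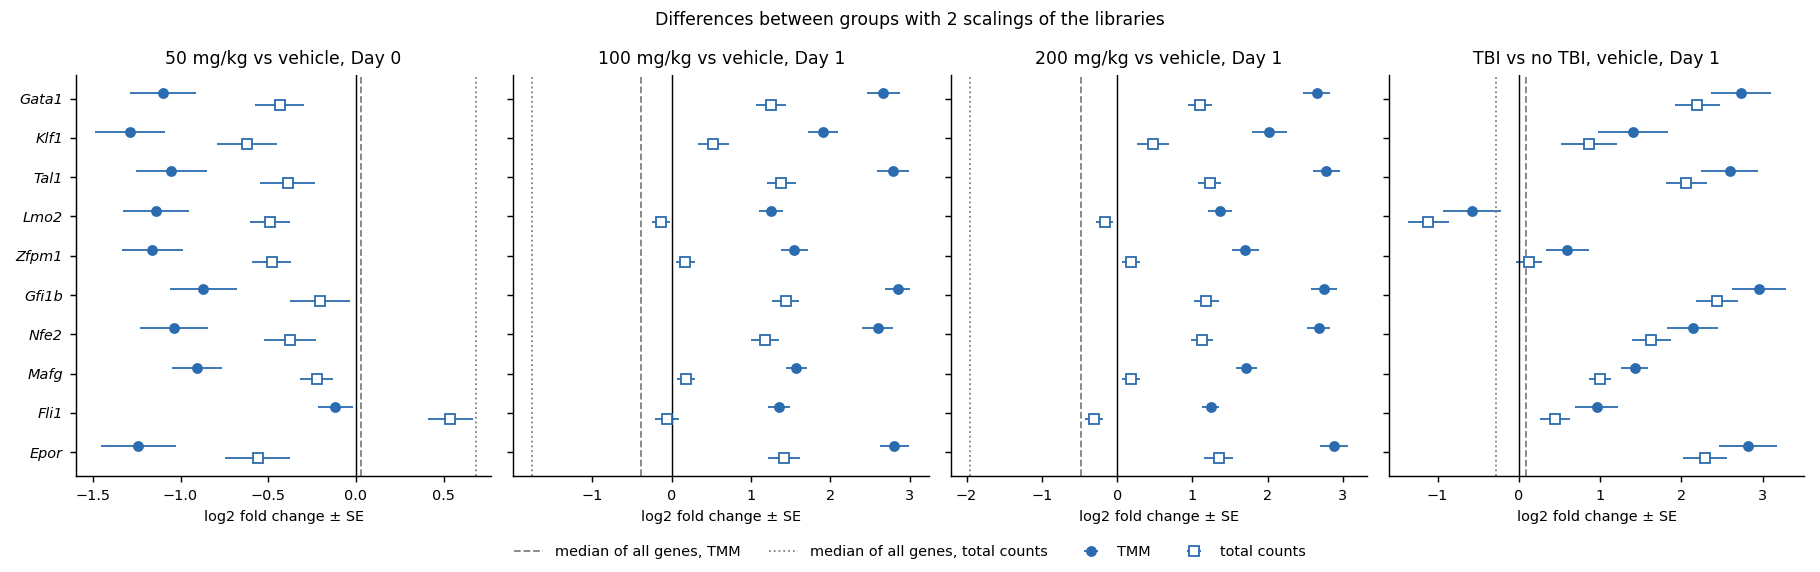
Log2 fold change with its SE (x axis) of each gene (y axis) in 4 comparisons, on TMM (filled circles) and on total counts (open squares), with the median of all genes as a dashed and a dotted line. At both higher doses on Day 1 Lmo2 and Fli1 change sign between the scalings while Gata1, Tal1, Nfe2, Gfi1b and Epor stay above 1 on both.

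Red cell and platelet genes, many of them known targets of these factors, were higher in the same comparisons. Of the red cell list, 28 of 29 genes at 100 mg/kg and 29 of 29 at 200 mg/kg were called higher, with median log2 differences of 1.64 and 1.87 against -0.38 and -0.48 for all genes. Hba-a1, an alpha globin gene, differed by 2.97 ± 0.42 at 100 mg/kg, as against 3.14 ± 0.38 at 200 mg/kg, and Rhag, a membrane protein of red cells, by 2.43 ± 0.13 and 2.47 ± 0.21. Hba-a2 differed by 2.86 ± 0.36 and 3.23 ± 0.35, though reads of both alpha globin genes can be split between near-identical copies. All 25 megakaryocyte and platelet genes were called higher at both doses (medians 2.98 and 3.08). Gp1bb, part of the von Willebrand factor receptor, differed by 3.39 ± 0.24 and 3.57 ± 0.20 and Treml1, a platelet granule receptor, by 3.26 ± 0.26 and 3.46 ± 0.21. Itga2b, the platelet integrin alpha subunit, differed by 3.21 ± 0.32 at 100 mg/kg and Gp5, another subunit of the von Willebrand factor receptor, by 3.38 ± 0.22 at 200 mg/kg. On total counts 12 red cell genes were called higher and 1 lower at 100 mg/kg, and 13 and 0 at 200 mg/kg. The platelet list kept 24 and 25 of 25 called higher (medians 1.56 and 1.52).

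Other factors of blood formation were called in both directions. Among 34 partner factors, 16 were called higher and 7 lower at 100 mg/kg, and 17 and 7 at 200 mg/kg, where 40.6% and 39.9% of all genes were called lower. Gata2, the GATA factor of progenitors, differed by 2.45 ± 0.18 and 2.46 ± 0.17, Sox6 by 2.45 ± 0.13 and 2.45 ± 0.19 and Foxo3, a factor active in maturing erythroblasts, by 2.09 ± 0.15 and 2.15 ± 0.18. Sox6 is a repressor of embryonic globin. Ets1, an ETS factor of lymphocytes, differed by -1.60 ± 0.24 and -1.64 ± 0.27, and Bach2, a B and T cell repressor, by -1.63 ± 0.28 and -1.77 ± 0.22. Runx3 was lower at 100 mg/kg (-0.97 ± 0.17) and Ldb1, which links the GATA1 and TAL1 complex to distant sites, was lower at 200 mg/kg (-0.79 ± 0.12). Those 7 genes kept their direction and call on total counts, where 3 of 34 were called higher at both doses and 29 and 30 lower, with 68.5% and 71.2% of all genes called lower on that scale. Of 18 receptor and signalling genes, 9 were called higher at both doses and 6 and 5 lower. Tfrc, the transferrin receptor, differed by 2.17 ± 0.14 and 2.28 ± 0.24. Sh2b3, an inhibitor of JAK2 signalling, differed by 1.67 ± 0.20 and 1.80 ± 0.12 but was not called on total counts (0.26 and 0.27). Irs2 (-1.13 ± 0.12 and -1.05 ± 0.16), Ptpn6 (-0.72 ± 0.18 and -0.76 ± 0.20) and Socs3 (-0.55 ± 0.22 and -0.67 ± 0.19) were lower. On total counts 2 receptor genes were called higher and 11 of 18 lower at both doses, a share below that of all genes called lower.

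Markers of B and T cells and the transcript Gm26917 moved with these groups. All 8 B cell markers were called lower at both doses, and 7 of 8 T cell markers were lower and 1 higher. Of the NK cell markers 3 of 7 tested were called lower at 100 mg/kg and 0 of 8 at 200 mg/kg, with none higher. The summed B cell markers ranged from 2171 to 3861 CPM of total counts in vehicle Day 1 mice, from 240 to 634 at 100 mg/kg and from 108 to 479 at 200 mg/kg. Gm26917, a long noncoding transcript, held 5.32 to 8.77% of the counts in vehicle Day 1 mice, 0.134 to 0.454% with 100 mg/kg and 0.0562 to 1.46% with 200 mg/kg. Their part in the differences of the 10 genes was not tested.

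On Day 0 the called differences were at the lowest dose and in the other direction. With 50 mg/kg BIO 300, 9 of the 10 genes were called lower than with vehicle, where 9.87% of 24485 genes were called lower. Ranges did not overlap for 8 of the 10, against 7.31% of all genes. Klf1 was lowest at -1.29 ± 0.20 (0.409 of the vehicle level, adjusted p = 0.00255, edgeR). Its mice had 1.15, 1.33 and 2.16 CPM (lowest, median and highest) against 2.25, 3.49 and 4.95 CPM with vehicle. Epor differed by -1.24 ± 0.21, Zfpm1 by -1.16 ± 0.17 and Lmo2 by -1.14 ± 0.19. Gata1 differed by -1.10 ± 0.19, Tal1 by -1.05 ± 0.20 and Nfe2 by -1.04 ± 0.19. Mafg (-0.91 ± 0.14) and Gfi1b (-0.87 ± 0.19) were called too, the latter with overlapping ranges. Fli1 differed by -0.12 ± 0.10 (adjusted p = 0.448) and was not called.

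Total counts moved the median of all genes by 0.66 in this comparison and the share of calls that were higher from 29.9% to 93.2%. There 7 members were called lower, where 3.61% of genes were, from -0.38 ± 0.15 for Nfe2 to -0.62 ± 0.17 for Klf1. Gfi1b (-0.20) and Mafg (-0.22) were not called, and Fli1 was called higher (0.54 ± 0.13). Red cell genes were lower on both scales, 24 of 29 on TMM (median -1.59) and 22 on total counts. Slc4a1, the anion exchanger of red cells, differed by -1.93 ± 0.34, Car2 by -1.89 ± 0.32 and Trim10 by -1.84 ± 0.33. Of the platelet list 24 of 25 were called lower on TMM (median -1.02) and 4 on total counts. Slfn14, an RNA nuclease of platelets and reticulocytes, differed by -1.65 ± 0.21, Vwf by -1.13 ± 0.21 and Tubb1, the platelet beta tubulin, by -1.13 ± 0.22, and on total counts Vwf was not called (-0.46). Partner factors gave 7 lower of 34, among them E2f2 (-1.69 ± 0.28), Sox6 (-1.39 ± 0.21) and Foxo3 (-1.15 ± 0.17), which were lower on total counts as well, where 28 others were called higher and 3 lower in all, with 49.4% of all genes called higher. Bcl2l1, the survival gene of late erythroblasts, differed by -1.79 ± 0.29 and Tfrc by -1.12 ± 0.21, among the 6 receptor and signalling genes called lower of 18. On total counts 11 of that list were called higher and 2 lower. Of the B cell markers 5 of 8 were called higher in this comparison, 8 on total counts and 1 with median-of-ratios factors (RLE), and the summed markers were 3606 to 4597 CPM of total counts at 50 mg/kg and 1385 to 2670 with vehicle. Gm26917 held 6.32 to 12.9% of counts at 50 mg/kg and 3.55 to 8.02% with vehicle. Whether either has a part in the lower values was not tested.

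At 100 and 200 mg/kg on Day 0 no member was called. The log2 differences lay between -0.13 and 0.27 for the 100 mg/kg group and between 0.10 and 0.83 for the 200 mg/kg group, with Klf1 the highest in both (0.27 ± 0.39 and 0.83 ± 0.23). edgeR called 0% of 24000 and 0% of 23795 genes, with 726 and 2145 genes at an unadjusted p under 0.05, and DESeq2 called 5 and 4. Of the members 0 and 2 had an unadjusted p under 0.05 (edgeR), the 2 being Klf1 and Lmo2 at 200 mg/kg, and DESeq2 called none of the 10. On Day 1, 50 mg/kg gave differences of 0.05 ± 0.09 (Fli1, and -0.28 on total counts, not called) to 0.82 ± 0.19 (Epor). There edgeR called 0 members and 0.00829% of 24118 genes, or 2, with 8 members and 4458 genes at an unadjusted p under 0.05. DESeq2 called 7 members higher (Gata1, Tal1, Nfe2, Gfi1b, Zfpm1, Epor and Mafg), where it called 3.74% of genes higher, so the call at this dose depends on the tool. Vehicle mice on Day 1 differed from those on Day 0 by -0.80 ± 0.20 (Zfpm1) to -0.06 ± 0.09 (Fli1), with 0 members and 0% of 24375 genes called by edgeR, 9 members and 3007 genes at an unadjusted p under 0.05, and 3 members called lower by DESeq2 (Zfpm1, Lmo2 and Mafg), where 2.5% of genes were.

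The change with day was tested directly as an interaction of dose and day, which asks whether the difference from vehicle was larger on Day 1. At 50 mg/kg 9 members were called higher, where 10.5% of 26323 genes were, from 1.43 ± 0.24 for Mafg to 2.06 ± 0.30 for Epor. Fli1, at 0.17 ± 0.13, was the exception. At 100 mg/kg all 10 were called, where 20.7% of 25908 genes were, from 1.32 ± 0.32 for Lmo2 to 2.81 ± 0.36 for Gfi1b. At 200 mg/kg all 10 were called as well, where 18.7% of 25702 genes were, from 0.96 ± 0.26 for Lmo2 to 2.48 ± 0.30 for Gfi1b. On total counts 9 members were again called higher at 50 mg/kg, where 3.02% of genes were, and Fli1 turned to -0.82 ± 0.18 and was called lower. The same scale left 5 members called higher at 100 mg/kg and 5 at 200 mg/kg (Gata1, Tal1, Nfe2, Gfi1b and Epor at both doses), where 5.51% and 4.47% of genes were. Lmo2 (-0.02 and -0.32) and Fli1 (-0.06 and -0.13) turned at both doses and Klf1 (-0.06) at 200 mg/kg, none of them called.

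After irradiation 8 of the 10 genes were higher in vehicle mice on Day 1, where 24.4% of 25146 genes were called higher, and 5 of the 10 did not overlap, where 25% of all genes did not. Gfi1b was 7.75-fold higher than in unirradiated vehicle mice (log2 2.95 ± 0.33, adjusted p = 2.47e-05, edgeR). Epor differed by 2.82 ± 0.36 and Gata1 by 2.73 ± 0.37. Tal1 differed by 2.59 ± 0.35, Nfe2 by 2.14 ± 0.31 and Mafg by 1.43 ± 0.17. Klf1 (1.41 ± 0.43, adjusted p = 0.0172) and Fli1 (0.96 ± 0.26, adjusted p = 0.0105) were among the called members whose mice overlapped. Zfpm1 (0.59 ± 0.26, adjusted p = 0.0807) and Lmo2 (-0.58 ± 0.36, adjusted p = 0.198) were not called. In simulated counts of this comparison 69% of 4-fold and 4% of 2-fold changes were recovered. Only 100 genes of 25146 were changed at each size there, while 11765 were called in the data. The cut on p was thus stricter in the simulation, and these shares do not give the chance of a call here. A missing call does not show that there was no difference. On total counts the median of all genes moved by -0.36 and the share of calls that were higher went from 52.2% to 35.8%. There 6 members were called higher, where 15.3% of genes were, Klf1 (0.86) and Fli1 (0.44) were not called and Lmo2 was called lower at -1.11 ± 0.26.

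One irradiated vehicle mouse, 51, had the lowest level of every member but Mafg in its group and the highest Alb of all 60 libraries. Leaving out the libraries with 1000 CPM or more of Alb brought Zfpm1 to 0.92 ± 0.24 (adjusted p = 0.00493), so that 9 members were called higher, where 27.8% of genes were. Without mouse 51 alone Zfpm1 was at 0.75 ± 0.25 (adjusted p = 0.0222), and without vehicle mouse 30 at 0.76 ± 0.26 (adjusted p = 0.0353).

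Against vehicle on Day 0, irradiated vehicle mice had 7 members called higher, where 19.6% of 24751 genes were, and 2 not overlapping (Gfi1b and Mafg), where 18% of all genes did not overlap. Gfi1b differed by 2.64 ± 0.35, Epor by 2.40 ± 0.39, Gata1 by 2.38 ± 0.39, Tal1 by 2.31 ± 0.38 and Nfe2 by 1.83 ± 0.34. Fli1 (1.04 ± 0.30) and Mafg (0.98 ± 0.20) were also called. Klf1 (1.06 ± 0.44, adjusted p = 0.0766), Zfpm1 (-0.07 ± 0.28) and Lmo2 (-1.002 ± 0.39, adjusted p = 0.0602) were not. Klf1 was called higher without mouse 51 (1.25 ± 0.29) and without the high Alb libraries (1.36 ± 0.26). Lmo2 was called lower in 7 of 8 alternative settings, all but RLE factors, from -0.69 ± 0.23 without the high Alb libraries to -1.36 ± 0.26 on total counts, so that the missing call held in few settings. It was also called lower without any one of irradiated mice 50 and 51 and vehicle mouse 17, at -1.39 ± 0.35, -0.83 ± 0.27 and -1.13 ± 0.39. Both irradiation comparisons share the irradiated mice.

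After irradiation the red cell and the platelet list had unlike counts of calls. Of the red cell list 5 of 29 were called higher than in vehicle Day 1 mice and 0 lower (median 0.36, all genes 0.09), while 24 of 25 platelet genes were called higher (median 2.58). Thbs1, thrombospondin, differed by 3.25 ± 0.40, Selp, the adhesion molecule of platelet granules, by 3.17 ± 0.56 and Gp5 by 2.91 ± 0.38. Gypc, a glycophorin, differed by 1.61 ± 0.28, Rhag by 1.58 ± 0.38 and Ermap, a red cell membrane protein, by 1.22 ± 0.39. On total counts 24 of 25 platelet genes were called higher (median 2.06), and of the red cell genes 3 were higher and 8 lower, Ermap (0.66) not being called. Partner factors gave 10 higher and 11 lower of 34, where 24.4% and 22.4% of all genes were, with Gata2 (2.30 ± 0.33), Spi1 (1.47 ± 0.25), the myeloid factor PU.1, and Lyl1 (1.36 ± 0.24), a close relative of Tal1, at the top. Ets1 (-2.60 ± 0.26), Bach2 (-2.51 ± 0.21) and Runx3 (-1.86 ± 0.19) were at the bottom, and all 6 kept their call on total counts, with 9 higher and 13 lower in the list, where 15.3% and 27.5% of all genes were. Of 18 receptor and signalling genes 10 were called higher and 0 lower, among them Socs3 (2.03 ± 0.34) and Tfrc (1.60 ± 0.39), and on total counts 6 and 1. All 8 neutrophil markers were called higher and all 8 B cell markers lower. Neutrophil markers summed to 1867 to 7420 CPM of total counts in irradiated vehicle mice and 607 to 1066 in unirradiated ones, and their part in the differences was not tested.

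BIO 300 at 200 mg/kg gave no called member among irradiated mice. The differences from irradiated vehicle ran from 0.10 ± 0.40 for Lmo2 to 0.55 ± 0.44 for Epor, and edgeR called 0% of 24916 genes, with 688 genes and 0 members at an unadjusted p under 0.05, and DESeq2 called 0 genes. In simulated counts of this comparison with 24916 genes, 28% of 4-fold and 0% of 2-fold changes were recovered, so changes of the size of these differences were not detectable here.

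The difference between 200 mg/kg and vehicle was smaller with irradiation than without it. In the interaction of 200 mg/kg with TBI, 8 members were called lower, where 12.1% of 26875 genes were. Tal1 was at -2.18 ± 0.45 (adjusted p = 0.00100), Gfi1b at -2.15 ± 0.45, Epor at -2.11 ± 0.48, Nfe2 at -2.002 ± 0.42 and Gata1 at -1.88 ± 0.48. Klf1 (-1.49 ± 0.56, adjusted p = 0.0436), Zfpm1 (-1.29 ± 0.35) and Mafg (-1.18 ± 0.26) were called too, Klf1 in 10 of the 24 fits that each left out 1 mouse. Lmo2 (-1.04 ± 0.44, adjusted p = 0.0678) and Fli1 (-0.57 ± 0.38) were not called, and without irradiated mouse 51 or 60 Lmo2 was called at -1.28 ± 0.35 and -1.16 ± 0.45. In simulated counts of this interaction 44% of 4-fold and 2% of 2-fold changes were recovered. Only 100 genes of 26875 were changed at each size there, while 9119 were called in the data. These shares come from a stricter cut on p and do not give the chance of a call here. A missing call still does not show that there was no difference. On total counts, which moved the median of all genes by 1.08 and the share of higher calls from 64.5% to 93.9%, 4 members were called lower, where 3.03% of genes were. These were Tal1 (-0.97 ± 0.31), Gfi1b (-0.97 ± 0.33), Epor (-0.93 ± 0.35) and Nfe2 (-0.83 ± 0.31). Fli1 turned to 0.62 ± 0.25, called higher, and Lmo2 to 0.18, not called. The platelet list was called lower in 25 of 25 genes (median -2.44) and in 22 on total counts, and the red cell list in 17 of 29 and in 4.

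Among 200 mg/kg mice on Day 1, irradiated against unirradiated, 2 members were called lower, where 9.58% of 23610 genes were, and Lmo2 alone did not overlap, where 17.1% of all genes did not. Lmo2 differed by -1.76 ± 0.26 (adjusted p = 0.000386, edgeR) and Zfpm1 by -0.83 ± 0.25 (adjusted p = 0.0235). The other 8 lay between -0.21 ± 0.37 for Klf1 and 0.72 ± 0.32 for Gata1. This pair was not among those the study set out to compare. The red cell list was called lower in 22 of 29 genes (median -1.45) and the platelet list in 0 of 25 in either direction (median 0.03). Total counts moved the median of all genes by 0.90. There Lmo2 stayed lower (-0.93 ± 0.14), Zfpm1 was at 0.0018 and 7 members were called higher, where 46.5% of genes were. Without the high Alb libraries 5 members were called higher, where 24.1% of genes were, and these were Gata1, Tal1, Gfi1b, Fli1 and Epor.

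Ratios of members within a mouse do not depend on the scaling, and 18 of 55 ratio tests passed (2-sided exact permutation of 6 against 6 mice, whose smallest p is 0.00216, adjusted over the 55). Tal1 to Lmo2 set the groups apart most clearly. Its mean log2 count ratio was -1.63 ± 0.36 in vehicle Day 1 mice, -0.11 ± 0.55 at 100 mg/kg, -0.21 ± 0.33 at 200 mg/kg, 1.60 ± 0.32 in irradiated vehicle mice and 1.77 ± 0.34 in irradiated 200 mg/kg mice (SD, n = 6 each). The mice ran from -1.95 to -1.01 in the vehicle group, from -0.67 to 0.91 at 100 mg/kg, from -0.57 to 0.32 at 200 mg/kg and from 1.18 to 2.10 in the irradiated vehicle group, so that Lmo2 had more counts than Tal1 in every unirradiated vehicle mouse and fewer in every irradiated one. The differences of 1.52, 1.42 and 3.23 from vehicle Day 1, and of 1.98 between irradiated and unirradiated 200 mg/kg mice, each had the smallest exact permutation p of 0.00216 (adjusted 0.00794) and no overlap.

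Zfpm1 to Gata1 went the other way. It was 1.23 ± 0.48 in vehicle Day 1 mice, 0.17 ± 0.38 at 100 mg/kg, 0.30 ± 0.21 at 200 mg/kg, -0.77 ± 0.57 in irradiated vehicle mice and -1.16 ± 0.47 in irradiated 200 mg/kg mice. The differences from vehicle were -1.06 (adjusted exact permutation p = 0.0149) and -0.92 (adjusted p = 0.0198) for the 2 doses, with overlapping mice, and -1.9997 (adjusted p = 0.00794) for irradiation with none overlapping. Epor to Klf1 was -0.21 ± 0.21 in vehicle Day 1 mice, 0.63 ± 0.46 and 0.63 ± 0.53 at the 2 doses and 1.28 ± 0.34 after irradiation, with differences of 0.84, 0.84 and 1.48, each without overlap (adjusted exact permutation p = 0.00794). Nfe2 to Mafg, the subunits of NF-E2, rose by 1.00 and 0.97 at the 2 doses, from 1.07 ± 0.31 to 2.06 ± 0.20 and 2.04 ± 0.09, without overlap (adjusted exact permutation p = 0.00794). After irradiation it was 1.66 ± 0.70, with mice from 0.264 to 2.25, a difference of 0.59 (adjusted exact permutation p = 0.181).

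Klf1 to Fli1 differed on Day 0. Which cells gave the Fli1 counts in whole blood was not tested, so the ratio does not measure red cell against megakaryocyte transcripts. It was -5.64 ± 0.35 with vehicle, -6.80 ± 0.27 at 50 mg/kg and -4.91 ± 0.36 at 200 mg/kg. The difference at 50 mg/kg was -1.16 with no overlap (adjusted exact permutation p = 0.00794) and at 200 mg/kg 0.73 with overlap (adjusted p = 0.0198). On Day 1 the difference at 200 mg/kg was 0.80 (adjusted exact permutation p = 0.0501). No ratio differed between irradiated 200 mg/kg and irradiated vehicle mice (adjusted exact permutation p from 0.413 to 0.974), while the differences there ran from -0.39 for Zfpm1 to Gata1 to 0.17 for Tal1 to Lmo2.

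**Figure D3:**
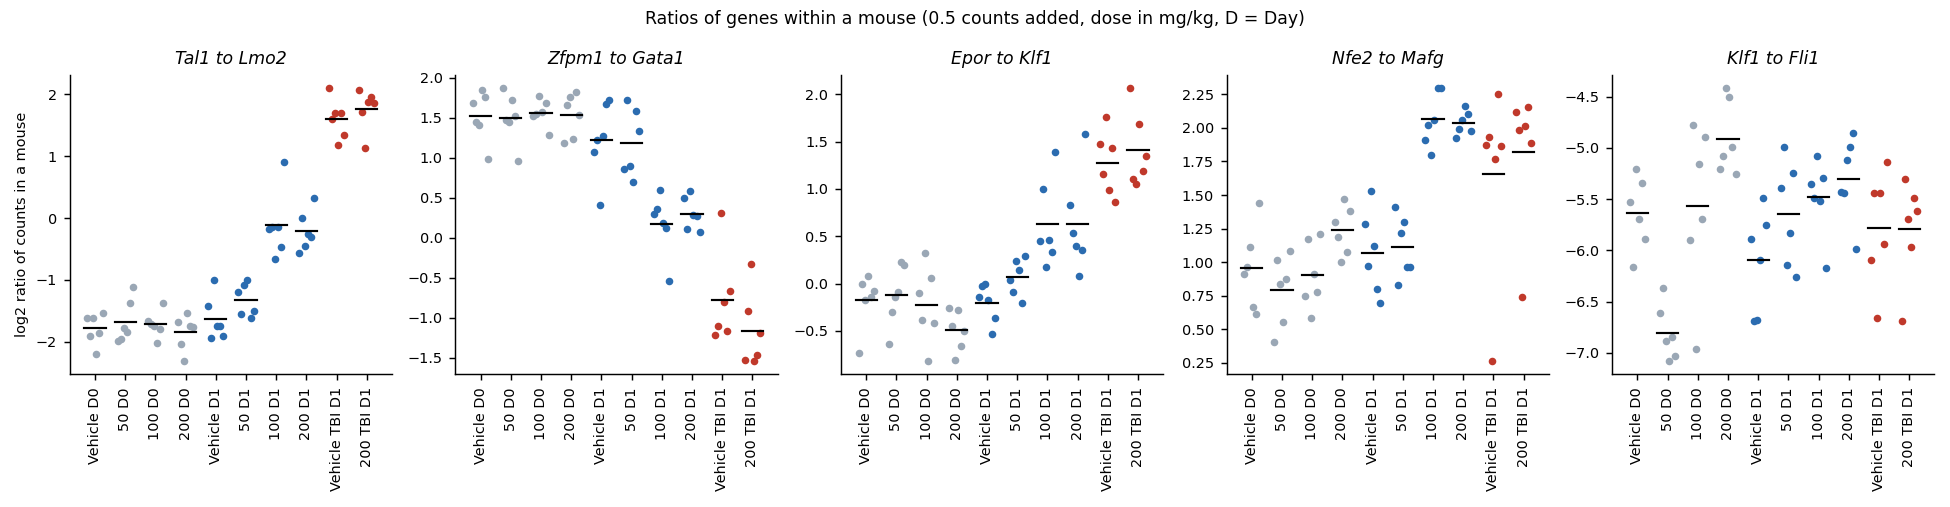
Log2 ratio of counts of 2 genes in each mouse (y axis, points, 0.5 added to each count) by group on the x axis, with group means as black lines, Day 0 in grey, Day 1 in blue and irradiated mice in red. Tal1 to Lmo2 steps up from the vehicle group to 100 and 200 mg/kg on Day 1 and again to the irradiated mice, without overlap, and Zfpm1 to Gata1 steps down.

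Within groups the mice kept part of this pattern. After subtracting group means, Pearson's r over the 60 mice on log2(CPM + 1) was 0.91 to 0.98 for the 10 pairs of Gata1, Tal1, Nfe2, Gfi1b and Epor, a set picked after the values were seen. On total counts it was 0.79 to 0.95, and without the high Alb libraries (53 mice) 0.61 to 0.93. The other 35 pairs ran from 0.58 to 0.93 on TMM, from -0.22 to 0.81 on total counts and from -0.45 to 0.67 there without the high Alb libraries. Mice of a pair of genes share their library and its scaling factor, and a common factor raises r on the TMM scale. Klf1 was closest to Lmo2 (0.93, and 0.81 on total counts) and Mafg had an r of -0.18 to 0.30 with all others on total counts, and of 0.03 (Lmo2) to 0.49 (Tal1) without the high Alb libraries. Among 8439 genes whose mean reached 10 CPM in a group, the closest to Gata1 were Tal1 (0.98), R3hdm4 (0.98) and Inafm2 (0.98). Klf1 was close to Fhdc1 (0.95) and Rhd (0.94), which encodes a red cell surface protein. Fli1 was closest to Dapp1 (0.97), Tmod3 (0.97) and Stk24 (0.96).

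**Figure D4:**
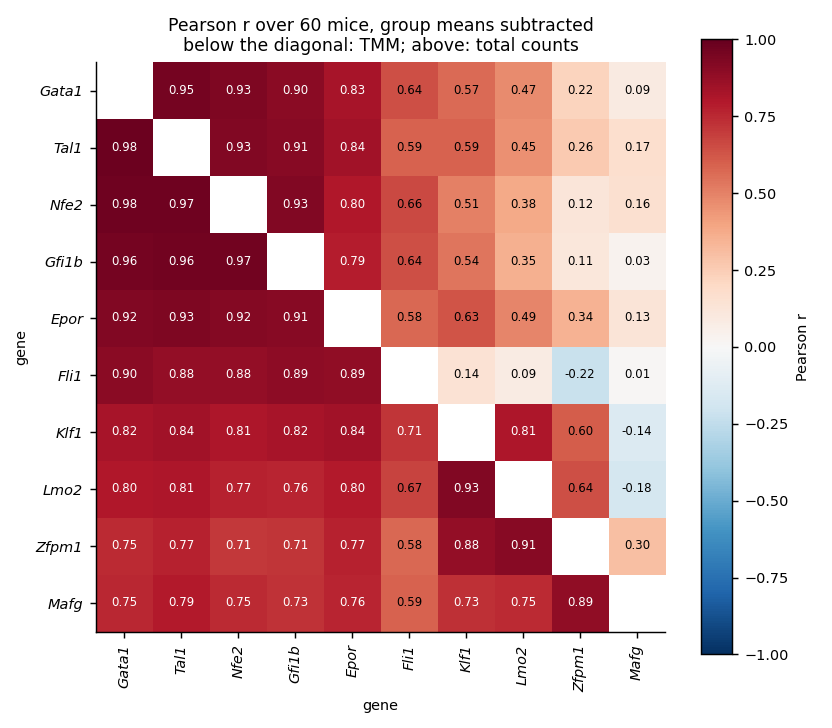
Pearson's r of each pair of the 10 genes (both axes) over 60 mice after subtraction of group means, with TMM scaling below the diagonal and total counts above it, coloured from -1 to 1. The pairs of Gata1, Tal1, Nfe2, Gfi1b and Epor stay at 0.79 or more on both scalings, while those of Mafg fall to 0.30 or less on total counts, or 0.49 or less without the high Alb libraries, which are not drawn.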

How the data were processed

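Whole blood RNA of 60 mice in 10 groups of 6 was sequenced. Read counts per gene were deposited by the authors as raw counts on GRCm38, made with Trimmomatic 0.36, STAR 2.5.2b and Subread 1.5.2 per the submitters' processing notes. The annotation release is not given in the sources used here. The labels name polyA RNA and the methods a stranded total RNA kit with ribosomal and globin depletion, which bears on globin counts. The authors' own fold change and p-value columns were not used. Library totals of 15099415 to 45589415 counts set the precision.

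Groups were compared with edgeR 4.0.16 (R 4.3.3), quasi-likelihood test, TMM factors, genes with at least 10 counts summed over the mice of each fit, and Benjamini-Hochberg adjustment over all genes tested, with 0.05 as threshold. Standard errors are the fold change divided by the root of F. Levels are CPM with TMM factors of all 60 mice, whereas fold changes and overlap of ranges come from each fit. Ratios were log2 ratios of counts with 0.5 added, compared by a 2-sided exact permutation test. The members and gene lists were chosen with earlier results of these data known. Named genes were the 10 members, from each list the 3 called genes with the highest and the 3 with the lowest fold change (mean of at least 10 CPM in 1 of the groups) in 4 comparisons, and the 3 genes most like Gata1, Klf1 and Fli1. Some genes that this rule names are not reported here. Alternatives were DESeq2 1.42.0, total counts, RLE factors, other filters, an added fold change threshold, an odd or even animal number term, 1 fit of 10 groups, and leaving out mice or libraries with 1000 CPM or more of Alb. List counts and correlations on other scalings were added after seeing the data. The fits were tested on simulated data. Markers of monocytes (1 higher and 5 lower at 100 mg/kg on Day 1), NK cells (0 and 3 of 7) and hepatocytes (0 and 0) were checked too.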

Additional observations from a re-analysis of the deposited data

Results flagged for a closer look

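In 9 of 100 combinations of gene and group 1 mouse stood apart from the other 5 by Dixon's gap test. Chance gives about 1 in 20 for a single combination. The same mice recur over genes that vary together, so the combinations are not independent and their number cannot be set against that rate. Irradiated vehicle mouse 51 was low in Gata1 (39.8 CPM), Nfe2 (81.4 CPM) and Gfi1b (15.9 CPM). Mouse 22 of the 200 mg/kg Day 0 group was high in Tal1 (124 CPM), Gfi1b (19.6 CPM) and Epor (8.60 CPM). Mouse 42 at 100 mg/kg on Day 1 was high in Tal1 (448 CPM), mouse 2 at 50 mg/kg on Day 0 high in Klf1 (2.16 CPM) and irradiated 200 mg/kg mouse 57 low in Nfe2 (109.8 CPM).

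The effect of BIO 300 differed between days or with irradiation in 37 of 40 interaction tests (edgeR). Of all genes 10.5%, 20.7% and 18.7% were called higher in the interactions of 50, 100 and 200 mg/kg with day. In that of 200 mg/kg with TBI 12.1% were called lower. On total counts 9, 5 and 5 members were called higher with day and 4 lower with TBI. There Fli1 was called lower at 50 mg/kg with day and higher with TBI. At 50 mg/kg the log2 difference between the Day 1 and Day 0 effects was 1.81 for Gata1, 1.85 for Klf1, 1.75 for Tal1, 1.60 for Nfe2, 1.67 for Gfi1b, 1.86 for Zfpm1, 1.57 for Lmo2, 2.06 for Epor and 1.43 for Mafg. At 100 mg/kg it was 2.78 for Gata1, 1.64 for Klf1, 2.77 for Tal1, 2.71 for Nfe2, 2.81 for Gfi1b, 1.68 for Zfpm1, 1.32 for Lmo2, 1.39 for Fli1, 2.72 for Epor and 1.71 for Mafg. At 200 mg/kg it was 2.36 for Gata1, 1.22 for Klf1, 2.42 for Tal1, 2.27 for Nfe2, 2.48 for Gfi1b, 1.44 for Zfpm1, 0.96 for Lmo2, 1.17 for Fli1, 2.36 for Epor and 1.62 for Mafg. On total counts Lmo2 and Fli1 at 100 mg/kg and Klf1, Lmo2 and Fli1 at 200 mg/kg took the other sign and were not called. The effect of 200 mg/kg with irradiation minus that without it was -1.88 for Gata1, -1.49 for Klf1, -2.18 for Tal1, -2.002 for Nfe2, -2.15 for Gfi1b, -1.29 for Zfpm1, -2.11 for Epor and -1.18 for Mafg.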

How the results depend on the processing

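On total counts the members called higher fell to 6 for each of the doses 100 and 200 mg/kg on Day 1, to 5 and 5 in the interactions of these doses with day, the members called lower to 4 in the interaction of 200 mg/kg with TBI and to 1 in irradiated against unirradiated 200 mg/kg mice, and an absolute log2 fold change over 1 also left 1 there. At 50 mg/kg on Day 1 DESeq2 called 7 and edgeR with filterByExpr 1, and for vehicle Day 1 against Day 0 DESeq2 called 3. Signs turned on total counts for Fli1 at 50 mg/kg on Day 0 (0.54), Lmo2 and Fli1 at 100 mg/kg (-0.14 and -0.059) and 200 mg/kg (-0.17 and -0.31) on Day 1, Fli1 at 50 mg/kg on Day 1 (-0.28) and between vehicle days (0.27), Klf1 (0.61) and Zfpm1 (0.0018) between irradiated and unirradiated 200 mg/kg mice, and Lmo2 (0.18) and Fli1 (0.62) in the interaction with TBI. In the interactions with day they turned for Fli1 at 50 mg/kg (-0.82), Lmo2 and Fli1 at 100 mg/kg (-0.020 and -0.064) and Klf1, Lmo2 and Fli1 at 200 mg/kg (-0.065, -0.32 and -0.13). Among the small Day 0 differences they turned for Tal1 (-0.054), Gfi1b (-0.037) and Fli1 (0.0052) at 100 mg/kg and for Gfi1b (-0.0067), Fli1 (-0.18) and Mafg (-0.14) at 200 mg/kg. At 100 mg/kg on Day 0 the odd or even term turned Tal1 (-0.076) and Gfi1b (-0.068), and leaving out the high Alb libraries turned Gata1 (0.065), Nfe2 (0.049), Zfpm1 (0.075), Lmo2 (0.11), Fli1 (0.0016) and Mafg (0.064). In that 200 mg/kg pair Nfe2 turned with filterByExpr (-0.021) and the odd or even term (-0.038), and Klf1 without the high Alb libraries (0.11). Zfpm1 in irradiated vehicle against Day 0 vehicle turned without those libraries (0.17) and ranged from -0.37 to 0.037 over fits without 1 mouse, and Lmo2 in irradiated 200 mg/kg against irradiated vehicle mice turned without them (-0.13) and ranged from -0.072 to 0.38. The changes on total counts came with the choice of scaling, and the cause of these and of the other changes was not tested. Counts of called members stayed within 1.5 times their value in 223 cases and moved further in 10. Fold changes of members kept direction and call in 2030 cases, gained a call in 54, lost it in 34 and turned in 42. Ratios kept their call in 103 cases and gained one in 7. No paired analysis was possible because each animal number belongs to 1 mouse only.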
